A study of Mus musculus with 23 samples.

Results

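Clu, C3, Serpina3n and Cxcl10 encode proteins that reactive astrocytes secrete, and their transcripts were followed here in a crushed mouse spinal cord. The 4 genes were taken by symbol from the deposited count tables, in which each was listed in both fractions. The tables held 9363 genes for the precipitate and 4898 for the flow-through, of which 4781 were in both. Serpina3n had the highest level of the 4 in the precipitate in 9 of 10 libraries when set per length. All 4 were higher in the precipitate than in the flow-through in a test of all treatments together, and no difference between treatments passed the test. Both results are for libraries scaled to the typical gene. Without that scaling C3 and Cxcl10 were no longer called, and some differences between treatments passed. Tested in each treatment by itself, Clu was called every time and Cxcl10 never.

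The mice carried Cre recombinase under a mouse Gfap promoter and the RiboTag allele, which puts a hemagglutinin tag on ribosomes of cells that express Cre, although the genotype label of every sample reads wild type. Every animal, a young adult, received a severe crush injury (SCI) at thoracic level 10, and 14 days later the central 3 mm of the lesion was taken. Uninjured cord was not analysed here. RNA that came down with the tag is called HA, and RNA left in the flow-through is called FT. A hydrogel depot with growth factors was injected 2 days after injury in the first treatment (3 HA and 5 FT libraries), a hydrogel depot named CT in the second (3 HA and 4 FT), and no depot is named for SCI only (4 HA and 4 FT). The labels do not explain CT. FGF and EGF are named in the title of the series, but BDNF and NT3 in the table headers for the same libraries, and this was not settled here. Whether each title number is one animal is not stated, so the p-values measure the spread between libraries, which may be technical. SCI only carries title numbers from 9596 to 9935 and the hydrogel treatments from 1645 to 1762, so the numbers do not overlap, and whether they mark a batch is not stated.

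Depth differed widely. Total counts per library were 7939015 to 24335808 in HA and 19600 to 5432216 in FT. Outside 6 loci that collect ribosomal RNA reads, 641378 to 6518495 counts were left in HA and 3284 to 349734 in FT. In HA these loci held 79.9 to 91.9% of counts with growth factors, 48.2 to 68.5% with hydrogel CT and 93.5 to 96.7% with SCI only. In FT they held 17.3 to 96.5%, 35.8 to 76.9% and 93.6 to 96.8% in the same order. Levels are given as CPM, counts divided by a library size that is scaled by TMM. This scaling gives the typical gene the same level in all 23 libraries. Unless stated, orders and overlaps of libraries are on this scale and can differ without it. How many of all genes separate groups without overlap was not counted. A floor of 3 counts corresponded to at most 2.03 CPM in an HA library but to between 2.35 and 32.0 CPM in an FT library of the hydrogel treatments and to between 1.23 and 10.1 CPM in one of SCI only. The floor, like the counting intervals given further on, covers counting error only, since amplified reads are not independent molecules.

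Reactive astrocytes form around a spinal cord lesion and change what they release. Clusterin (Clu) is a chaperone that binds misfolded proteins and lipids outside the cell. C3 is the central component of complement, whose cleavage products tag surfaces for uptake and attract cells. Serpina3n is an inhibitor of serine proteases and is widely used as a marker of astrocyte reactivity. Cxcl10 is a chemokine induced by interferon that attracts T cells through its receptor Cxcr3. Microglia and macrophages can also make C3 and Cxcl10, and endothelial cells can make Cxcl10.

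The precipitation was checked first with Gfap, the intermediate filament of astrocytes, and Aqp4, the water channel of their endfeet. Gfap averaged 2234 ± 1005 CPM in HA and 178 ± 106 CPM in FT (SD, n = 10 and 13) and was 3.70 higher in HA on the log2 scale (SE 0.41, adjusted p = 2.21e-08 in edgeR's quasi-likelihood test). Aqp4 averaged 614 ± 251 CPM in HA and 239 ± 204 CPM in FT, higher in HA by 1.91 (SE 0.37, adjusted p = 0.000211). Both were also detected in FT. Of 12 tested astrocyte markers 10 were higher in HA, and of 10 tested microglia and macrophage markers 9 were lower. Of 8 tested neuron markers 7 were lower. Among all tested genes 12.5% were higher and 6.45% lower. These marker tests are on the TMM scale and are not given without it, where the all-gene median moved from 0.31 to -1.39. Oligodendrocyte progenitor markers were also higher in HA, 6 of 6 tested, as were 4 of 10 tested oligodendrocyte markers, so HA levels cannot be assigned to astrocytes alone. In bulk RNA, fewer cells of a type and less RNA per cell cannot be told apart.

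Gene positions are in GRCm38, from GENCODE M21, and the level of each gene in every library is shown first. Clu (chromosome 14, 65968483 to 65981547, + strand) stood in HA at 409, 491 and 804 CPM with growth factors, at 499, 501 and 595 CPM with hydrogel CT, and at 569.9, 613, 755 and 1227 CPM with SCI only. In FT it stood at 0, 11.8, 13.9, 62.5 and 83.2 CPM with growth factors, at 14.3, 29.6, 59.4 and 80.4 CPM with hydrogel CT, and at 45.7, 46.9, 58.8 and 67.8 CPM with SCI only. Every HA library was above every FT library. Its reads came almost wholly from the full protein-coding transcript of 9 exons, which held 99.8% of the Clu counts in HA, and 3 short transcripts shared the rest. By mean CPM Clu was the gene of rank 23 of 9363 in HA and of rank 271 of 4898 in FT.

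Serpina3n (chromosome 12, 104406729 to 104414329, + strand, 5 exons) stood in HA at 1353, 2496 and 2948 CPM with growth factors, at 311, 897 and 1027 CPM with hydrogel CT, and at 893, 927, 1446 and 1492 CPM with SCI only. In FT it stood at 11.8, 12.5, 42.6, 66.6 and 212 CPM with growth factors, at 13.7, 20.1, 89.5 and 180.0 CPM with hydrogel CT, and at 282, 294, 386 and 399 CPM with SCI only. The SCI only libraries were the highest of FT, and the fractions overlapped over all treatments because the lowest HA library, number 1762, lay below 2 of them. Within a treatment HA and FT did not overlap. Serpina3n had rank 14 in HA and rank 63 in FT by mean CPM. Of its close relatives in the Serpina3 cluster, Serpina3i was listed in HA, with 0 to 118 counts per library, and Serpina3c, Serpina3f, Serpina3g, Serpina3h, Serpina3k and Serpina3m were not listed in either table. How the authors' counting treated reads shared by these copies is not given in the sources used here.

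C3 (chromosome 17, 57203970 to 57228136, − strand, 41 exons) stood in HA at 31.2, 32.2 and 39.5 CPM with growth factors, at 6.66, 34.7 and 38.7 CPM with hydrogel CT, and at 26.3, 38.2, 76.5 and 79.1 CPM with SCI only. In FT it had 1 count in 1 of 5 libraries with growth factors, 2, 1, 1 and 0 counts with hydrogel CT, and 18, 21, 7 and 2 counts with SCI only, the last being 7.35, 25.9, 8.58 and 6.70 CPM. One HA library, number 1762 with hydrogel CT, was below some FT libraries and the others were above all of them. That library was also the lowest of its group for Serpina3n, at the highest depth of any library outside ribosomal RNA, so counting error was small.

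Cxcl10 (chromosome 5, 92346638 to 92348889, − strand, 4 exons) varied most of the 4 among HA libraries. It stood at 2.59, 6.17 and 44.9 CPM with growth factors, at 7.31, 9.43 and 26.3 CPM with hydrogel CT, and at 7.43, 20.4, 73.2 and 115 CPM with SCI only. In FT it had 0, 4, 0, 0 and 2 counts with growth factors, 0 in each of the 4 libraries with hydrogel CT, and 41, 8, 12 and 2 counts with SCI only, the last being 16.7, 9.88, 14.7 and 6.70 CPM. The fractions overlapped. Its coefficient of variation over the 10 HA libraries was 118%, against 36.7% for Clu, 54.4% for C3 and 57.5% for Serpina3n. Art3, on the opposite strand, shares 133 exon bases with Cxcl10 and was listed in neither table, and the strand setting of the counting is not given, so reads of both cannot be told apart.

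The 250 bases before the start of each gene in RefSeq (GRCm38.p6) are shown for Cxcl10 and for Ifit1, another interferon-induced gene whose levels are given further on since they are among those most like Cxcl10, because both are known targets of interferon signalling, and for C3 because its promoter is known to bind C/EBP factors. Of the 4 genes 3 were matched in that table. Capitals mark matches, on either strand, to GAAANNGAAA (the interferon-stimulated response element, ISRE), GGGANNTTCC (NF-kB), TTCNNNGAA (STAT), TGANTCA (AP-1), TTGCNNAA (C/EBP) or TATAAA (the TATA box). Cxcl10 is at chr5:92348890-92349139 on the − strand, Ifit1 at chr19:34640639-34640888 on the + strand and C3 at chr17:57228137-57228386 on the − strand.
Cxcl10: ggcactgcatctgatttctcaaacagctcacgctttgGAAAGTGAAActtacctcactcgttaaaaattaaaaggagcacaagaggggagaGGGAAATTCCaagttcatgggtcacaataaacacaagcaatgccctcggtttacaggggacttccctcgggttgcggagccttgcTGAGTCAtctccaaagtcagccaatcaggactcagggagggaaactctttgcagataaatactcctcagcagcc
Ifit1: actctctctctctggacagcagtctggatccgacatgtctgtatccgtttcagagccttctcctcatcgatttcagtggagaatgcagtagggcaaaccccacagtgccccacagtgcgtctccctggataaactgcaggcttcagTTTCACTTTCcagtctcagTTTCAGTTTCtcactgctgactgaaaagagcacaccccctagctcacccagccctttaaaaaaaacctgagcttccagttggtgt
C3: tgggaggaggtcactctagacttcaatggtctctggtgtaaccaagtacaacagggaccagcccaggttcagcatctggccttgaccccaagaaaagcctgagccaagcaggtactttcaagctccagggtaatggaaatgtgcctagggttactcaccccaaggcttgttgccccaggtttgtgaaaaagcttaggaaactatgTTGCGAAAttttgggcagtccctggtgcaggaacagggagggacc

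Cxcl10 held an ISRE match from 213 to 204 bases before its start, an NF-kB match from 159 to 150 and an AP-1 match from 74 to 68. Ifit1 held ISRE matches on the opposite strand from 104 to 95 and from 85 to 76 bases before its start. C3 held a C/EBP match from 45 to 38 bases before its start. Serpina3n held none of the 6 motifs in this window. Among 32851 promoters of the same length, 2.98% held the ISRE, 1.21% the NF-kB motif, 7.02% the STAT motif, 6.75% the AP-1 motif, 9.56% the C/EBP motif and 12.4% the TATA motif. The matches describe letters in the sequence and do not show that a factor was bound.

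**Figure D1:**
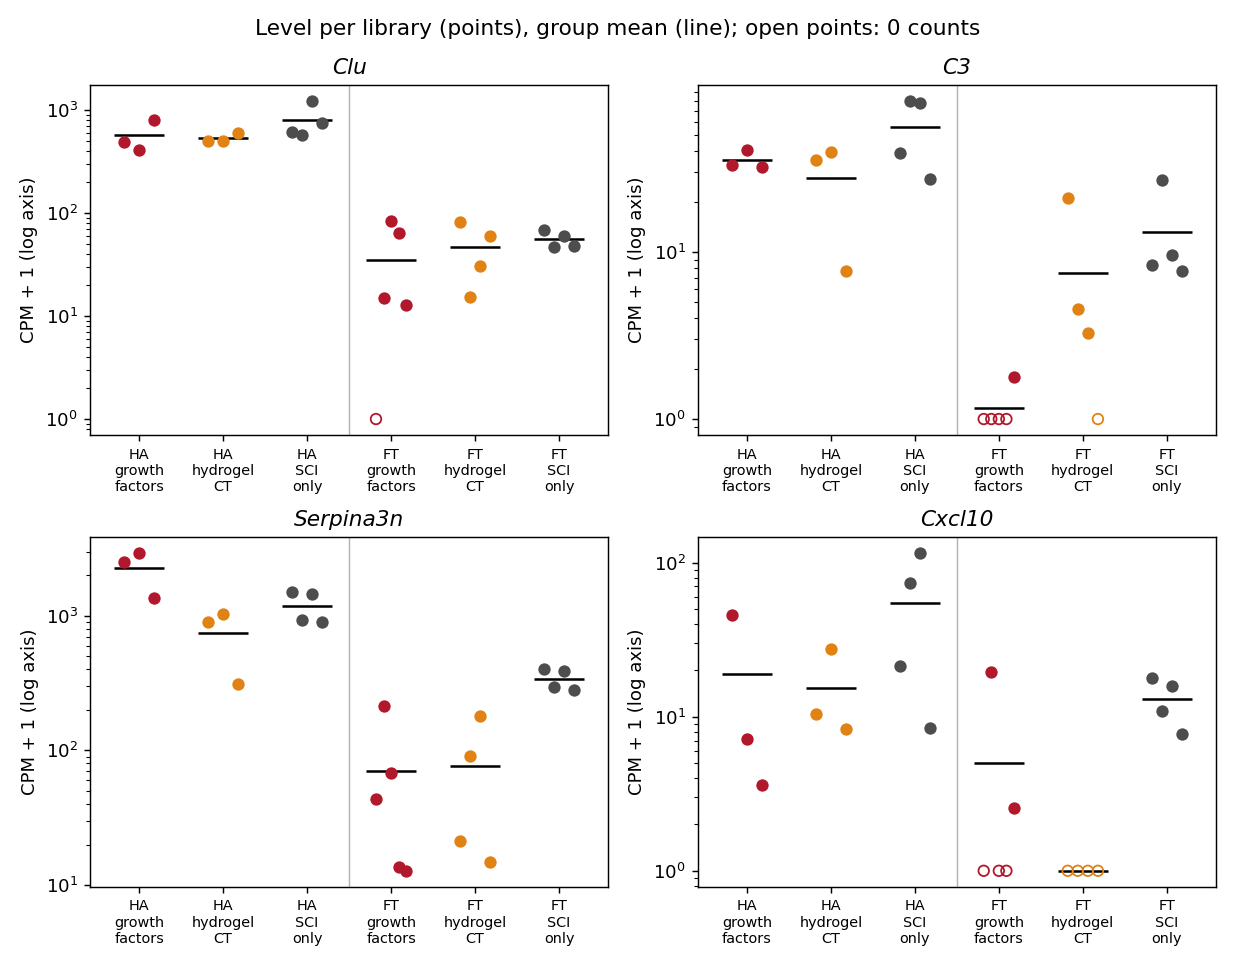
Level of each gene as CPM + 1 on a log axis, per library, with HA groups left of FT groups and the group mean as a line. Open points are libraries with 0 counts. On the TMM scale all HA libraries of Clu lie at or above 409 CPM and all FT libraries at or below 83.2 CPM. Cxcl10 spans 2.59 to 115 CPM within HA.

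Levels between genes were compared per kilobase of the longest listed transcript. In HA, Serpina3n ranged from 151 to 1428 CPM per kb and Clu from 226 to 678, and these ranges overlapped. Serpina3n was above Clu in 9 of 10 libraries, the exception being number 1762 at a ratio of 0.459. The ratio of Serpina3n to Clu inside a library does not depend on how libraries are scaled. It was 1.48, 4.46 and 6.32 with growth factors, 0.459, 1.58 and 1.799 with hydrogel CT, and 1.03, 1.04, 1.43 and 2.14 with SCI only. Groups overlapped, although the highest 2 ratios were both with growth factors. Cxcl10 followed at 2.36 to 105 CPM per kb and C3 at 1.30 to 15.4, with Cxcl10 above C3 in 8 of 10 libraries. These lower ranks overlapped each other and lay below both other genes in every HA library. The order of Cxcl10 and C3 depends on the division by length (1094 and 5136 bases). By mean CPM in HA, without that division, C3 had rank 630 and Cxcl10 rank 852 of 9363 genes. Whether the division suits amplified RNA was not tested.

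Setting HA against FT asks which transcripts came down with the tagged ribosomes. It used the 10 title numbers with both fractions, with terms for treatment and fraction, over 4571 genes. Clu was higher by a log2 difference of 4.14 (SE 0.40, adjusted p = 1.04e-09), C3 by 3.27 (SE 0.57, adjusted p = 5.88e-05), Serpina3n by 3.09 (SE 0.48, adjusted p = 1.20e-05) and Cxcl10 by 2.52 (SE 0.68, adjusted p = 0.00699). So 4 of 4 rose in HA, where 12.5% of all tested genes did, and the median over all genes was 0.31. On the TMM scale the HA level was above the FT level in 10 of 10 title numbers for Clu and Serpina3n. Fold differences within a number ran from 4.92 to 68.4 for Clu and from 3.15 to 115 for Serpina3n on that scale. Number 1732 was the highest for both, on 15 FT counts of each gene. Without scaling, Clu in number 1732 held 4663 of 11276684 listed counts in HA and 15 of 144902 in FT. Serpina3n held 7851 and 15 of the same totals. As a share of all listed counts, number 1732 was the highest for neither gene. For C3 and Cxcl10 FT was at 0 in 3 and 4 of the 10 numbers, and HA was above FT in the others on the TMM scale. Where FT was at 0, the HA level lay below what a count of 0 allows in FT in number 1762 for C3 and in numbers 1687, 1724 and 1762 for Cxcl10, so no difference was detectable in these. Without TMM, on all listed counts, Clu and Serpina3n passed. C3 (1.94, adjusted p = 0.0663) and Cxcl10 (0.98, adjusted p = 0.443) did not, and the median of all genes moved to -1.39. As a share of all listed counts, Clu in number 1687 was lower in HA (663 of 7939015) than in FT (10 of 64336). Cxcl10 was then lower in HA in numbers 1685, 1732, 9596 and 9935 and higher in 9843 and 9874. Wherever FT held counts, C3, Serpina3n and Clu in the other numbers stayed higher in HA.

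Within treatments fewer genes were called. With growth factors 3 of 4 genes were higher in HA, where 8.24% of all tested genes were: Clu by 4.36 (SE 0.74), Serpina3n by 4.65 (SE 0.82) and C3, with 543 counts in HA and 1 in FT over 3 libraries each, a ratio of 52.5 with a 95% exact counting interval of 9.38 to 2078. Cxcl10 stood at 1.84 (SE 1.26, adjusted p = 0.342). Without TMM no call was left with growth factors (Clu 1.48, adjusted p = 0.178; C3 2.29, 0.273; Serpina3n 1.39, 0.194) and Cxcl10 stood at -1.22. The C3 call was also lost in a fit of the growth factor libraries alone (adjusted p = 0.103). With hydrogel CT Clu was higher by 4.28 (SE 0.72, adjusted p = 0.000583), Serpina3n by 3.21 (SE 0.77, adjusted p = 0.0182) and C3 passed at adjusted p = 0.0414 on 2343 counts in HA and 2 in FT, a ratio of 10.4 with an exact counting interval of 2.87 to 85.7. That is 3 of 4 against 1.6% of all tested genes. The Serpina3n call was lost without number 1724 (adjusted p = 0.145), 1759 (0.0941) or 1762 (0.0968), and the C3 call without any of these (0.191, 0.284 and 0.137) or without any SCI only number (0.0506 to 0.0669). Cxcl10 averaged 14.4 CPM in HA against 0 counts in all 4 FT libraries, at least 4.96-fold higher when FT is set to a floor of 3 counts over the group, and its test gave an adjusted p of 0.0752, which passed without number 1685 (0.0312) or 1732 (0.0366). Without TMM all 3 calls with hydrogel CT were lost (Clu 2.92, adjusted p = 0.142; C3 2.61, 0.560; Serpina3n 2.01, 0.387).

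With SCI only, where FT was deepest, Clu was higher by 3.99 (SE 0.59, adjusted p = 4.98e-05), 1 of 4 genes called against 2.25% of all tested genes. C3 stood at 2.30 (SE 0.72, adjusted p = 0.0595), Serpina3n at 1.99 (SE 0.63, adjusted p = 0.0624) and Cxcl10 at 2.21 (SE 0.92, adjusted p = 0.198). In a fit of the SCI only libraries alone C3 (2.13, adjusted p = 0.0175) and Serpina3n (1.798, adjusted p = 0.00176) passed, whereas the same kind of fit lost C3 in both hydrogel treatments (adjusted p = 0.103 with growth factors and 0.0709 with hydrogel CT). C3 also passed without number 1685, 1687, 1732 or 1762 (0.0337 to 0.0419) and Serpina3n without 1685, 1732 or 1762 (0.0132 to 0.0352), each a number of another treatment.

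**Figure D2:**
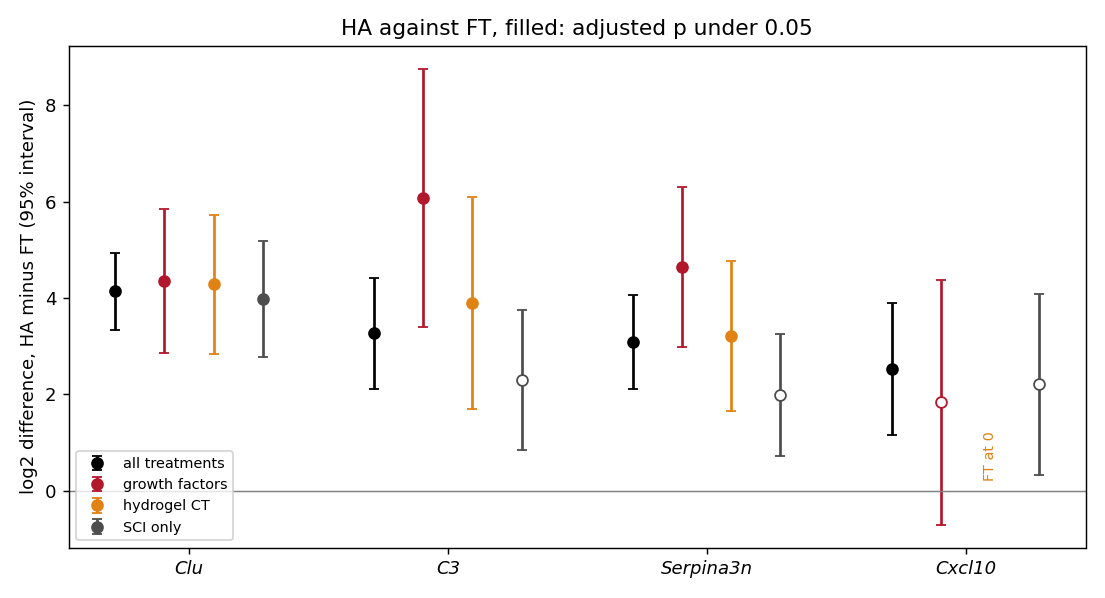
Log2 difference of HA minus FT for each gene, over all treatments and within each, with 95% intervals from the fit. Filled points passed at an adjusted p under 0.05, and Cxcl10 with hydrogel CT is left out because FT had 0 counts. Serpina3n lies at 4.65 with growth factors and at 1.99 with SCI only, with intervals that overlap, and the C3 points of the hydrogel treatments rest on 1 and 2 FT counts.

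Whether the HA to FT difference itself differed between treatments was tested as an interaction. No gene of the 4 passed. The difference for Serpina3n with growth factors exceeded that with SCI only by a log2 of 2.65 (SE 0.96, unadjusted p = 0.00851, adjusted p = 0.217) and that for C3, which rests on 1 FT count with growth factors, gave an adjusted p of 0.254. Clu differed by 0.37 (95% interval -1.39 to 2.13). In that contrast 0.0421% of all genes passed. Neither growth factors against hydrogel CT (0.0% of genes; 579 of 4747 at an unadjusted p under 0.05 in edgeR, 41 called by DESeq2) nor hydrogel CT against SCI only (0.0%; 261 unadjusted, 1 by DESeq2) gave a call for any gene in edgeR.

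Counts relative to Gfap in the same library do not depend on library scaling, and this measure was added after the values were seen. With SCI only, Clu had 21.4 to 45.3 counts per 100 Gfap counts in HA and 14.6 to 23.3 in FT. Serpina3n had 25.3 to 91.9 in HA and 88.4 to 137 in FT. C3 had 0.747 to 3.64 in HA and 2.11 to 8.27 in FT, and Cxcl10 had 0.211 to 4.25 in HA and 2.11 to 5.77 in FT. All 4 overlapped between fractions, and the medians ran both ways. The HA median was above the FT median for Clu (32.0 in HA and 17.6 in FT) and below it for Serpina3n (48.0 in HA and 114 in FT), C3 (2.59 in HA and 2.76 in FT) and Cxcl10 (2.31 in HA and 4.13 in FT). Compared within a title number, HA was higher in 4 of 4 for Clu and lower in 4 of 4 for Serpina3n, in 4 of 4 for C3 and in 3 of 4 for Cxcl10. The hydrogel treatments are left out of these ranges because their FT held 111 Gfap counts over 5 libraries with growth factors and 121 over 4 with hydrogel CT, against 1295 over the 4 with SCI only. There, too, the medians ran both ways: Serpina3n had 71.0 in HA and 25.8 in FT with growth factors, and 69.5 in HA and 84.5 in FT with hydrogel CT. In the SCI only libraries the microglia and macrophage markers summed to 111 to 1305 CPM in HA and 3738 to 9913 CPM in FT, and their part in these ratios was not tested.

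**Figure D3:**
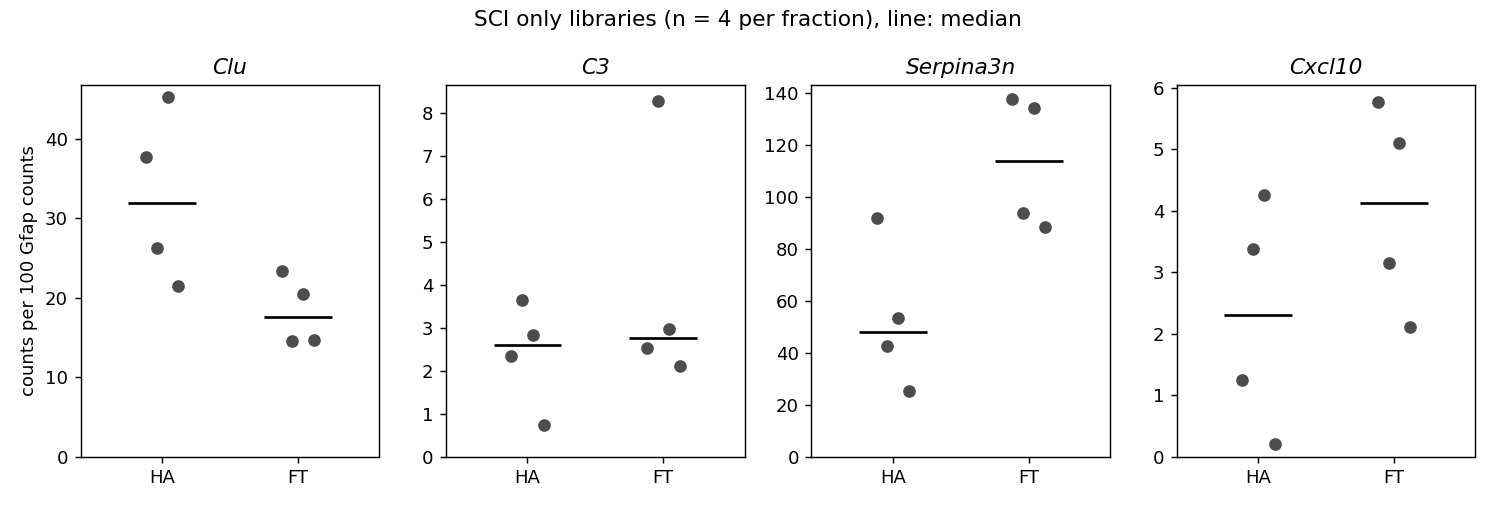
Counts of each gene per 100 Gfap counts in the 4 HA and 4 FT libraries of SCI only, with the median as a line, on axes that start at 0. Serpina3n reaches 91.9 in HA and 137 in FT, whereas Clu reaches 45.3 in HA and 23.3 in FT.

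The other genes of each pathway were taken from lists that were drawn up with results of these data known. In the fraction comparison over all treatments, 12.5% of all tested genes were higher in HA and 6.45% lower. In the complement list 7 of 33 genes were tested, and C3 was the single one higher in HA. C1qc (log2 difference -3.10, SE 0.53) and C1qb (-2.67, SE 0.55), chains of the recognition molecule C1q, were lower, as was Itgax (-3.19, SE 1.11), a subunit of a receptor for the C3 fragment iC3b. The list's median was -1.90. C3ar1, the receptor for the C3a fragment, stood at -1.90 (SE 0.83, adjusted p = 0.105), C4b, the component that helps to cleave C3, at 1.24 (SE 0.58, adjusted p = 0.137), and C1qa at -1.27 (SE 0.74, adjusted p = 0.239). Itgam and Itgb2 were not listed in either table. C3 and its receptor C3ar1 therefore stood on opposite sides of the all-gene median of 0.31, the receptor without passing.

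Among serpins 3 of 22 were tested. Serpine2, a secreted inhibitor of thrombin and plasminogen activators, was higher by 2.30 (SE 0.35), beside Serpina3n, and Serpini1, a neuronal serpin, stood at -0.37 (SE 0.94, adjusted p = 0.835). Of 31 chemokines and receptors 7 were tested. Cxcl14 was higher by 2.02 (SE 0.50) along with Cxcl10, and Cx3cr1, the fractalkine receptor of microglia, was lower (-2.58, SE 0.71). Cxcl9, which shares the receptor of Cxcl10, had 0 to 1701 counts in HA and 0 to 11 in FT and stood at -0.66 (SE 1.17, adjusted p = 0.753). Cxcr3 was not listed in either table, and neither was Cxcl11.

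Of 34 genes of the interferon and NF-kB response 13 were tested, with a median of 0.80. Ifit3, an interferon-induced antiviral protein, was higher by 2.98 (SE 0.65). Irf8, a transcription factor of microglia and macrophages, was lower at -3.59 (SE 0.87), as was Ifngr2, a chain of the interferon gamma receptor, at -2.52 (SE 0.83). In the list on the handling of clusterin and apolipoproteins 13 of 19 were tested, with a median of -0.43. Clu was the single one higher. Tyrobp (-3.75, SE 0.70), the adaptor of the lipid and clusterin receptor Trem2, and Lpl (-2.49, SE 0.73), a lipase, were lower. Trem2 itself stood at -2.17 (SE 1.03, adjusted p = 0.142), and Lrp2, a receptor that takes up clusterin, was not listed in either table.

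In the STAT3 and gp130 list, 7 of 19 were tested and Cebpd, a transcription factor induced by STAT3, was higher by 2.99 (SE 0.84). The oncostatin M receptor Osmr stood at 0.00 (SE 0.55, adjusted p = 0.998). Of 5 tested genes on the list of shared markers of reactive astrocytes 4 were higher, namely Gfap, Serpina3n, Cxcl10 and the intermediate filament Vim (1.34, SE 0.41). Of 2 tested genes on the list called A1 in the literature, C3 was higher and H2-D1 stood at -0.83 (SE 0.52, adjusted p = 0.280). On the list called A2 the single tested gene, S100a10, stood at 1.84 (SE 0.74, adjusted p = 0.0785).

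Most tested genes on the list of other secreted proteins of astrocytes were also higher in HA. Of 32 on that list 13 were tested, 11 were higher in HA, none was lower, and the median was 2.65 against 0.31 for all genes. Of all tested genes 12.5% were higher. Within treatments 8 of 13 were higher with growth factors, 3 with hydrogel CT and 8 with SCI only, against 8.24%, 1.6% and 2.25% of all tested genes. Since this list was drawn up with results known, its counts are a description and lend the 4 genes no support. Agt, the precursor of angiotensin, was higher by 4.46 (SE 0.64), Sparcl1, a matrix protein that promotes synapses, by 2.71 (SE 0.40), and Timp3 and Timp4, inhibitors of metalloproteases, by 3.36 (SE 0.50) and 2.88 (SE 0.45). Pla2g7, a secreted phospholipase, was higher by 2.93 (SE 0.48) and Igfbp5, which binds insulin-like growth factors, by 2.65 (SE 0.44). Timp2 stood at -0.37 (SE 0.41, adjusted p = 0.587) and Gpc6 at 0.13 (SE 0.60, adjusted p = 0.909).

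**Figure D4:**
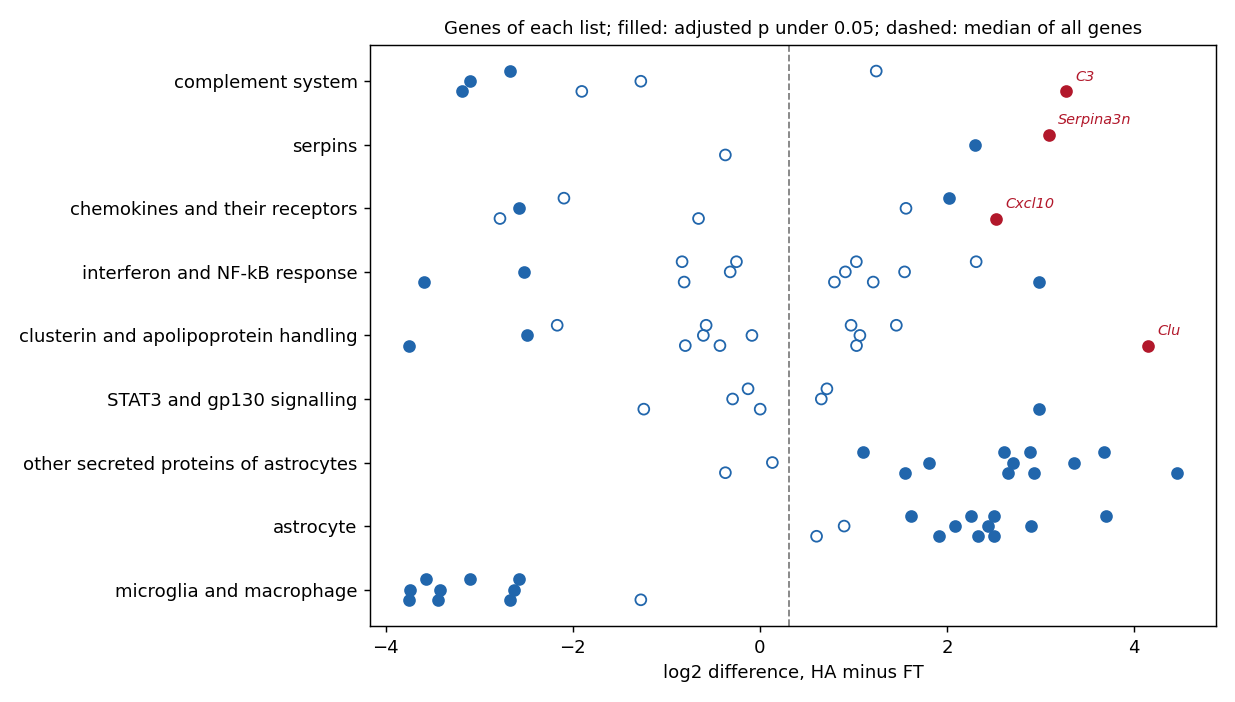
Log2 difference of HA minus FT for each tested gene of 7 pathway lists and 2 marker lists, with the 4 genes of the report in red and filled points past an adjusted p of 0.05. The dashed line is the median of all genes (0.31). Complement genes other than C3 and C4b lie left of it, and 11 of 13 other secreted astrocyte proteins are filled on its right.

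The comparisons between treatments asked what the depots changed within a fraction. In HA no gene of the 4 passed in any of them, where 0.0902% of 6654 genes passed for growth factors against hydrogel CT, 0.195% for hydrogel CT against SCI only and 0.436% for growth factors against SCI only. Serpina3n averaged 2266 ± 822 CPM with growth factors, 745 ± 381 CPM with hydrogel CT and 1189 ± 324 CPM with SCI only (SD, n = 3, 3 and 4). On the TMM scale its libraries with growth factors were all above those with hydrogel CT and overlapped those with SCI only. The share of all genes that separate in this way was not counted, so this order is a description only. The log2 difference was 1.30 (95% interval 0.27 to 2.33, adjusted p = 0.272) against hydrogel CT, and -0.82 without TMM, and it was 1.11 (0.17 to 2.06, adjusted p = 0.176) against SCI only, in edgeR's test. Astrocyte markers summed to 8923 to 10157 CPM with growth factors, 4948 to 9142 CPM with hydrogel CT and 4727 to 7724 CPM with SCI only, with none of the 14 listed markers at 0, and their part in the Serpina3n values was not tested. Relative to Gfap, Serpina3n had 52.1 to 163 counts per 100 with growth factors, 20.8 to 85.2 with hydrogel CT and 25.3 to 91.9 with SCI only, which overlapped.

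The other 3 genes showed no call between treatments in HA and their intervals were wide. Clu with growth factors stood at -0.22 against hydrogel CT (95% interval -1.19 to 0.75) and at -0.22 against SCI only (-1.13 to 0.69), and with hydrogel CT at -0.00 against SCI only (-0.91 to 0.91). C3 with growth factors stood at 0.07 against hydrogel CT (-1.44 to 1.58) and at -0.44 against SCI only (-1.87 to 0.99), and with hydrogel CT at -0.51 against SCI only (-1.94 to 0.92). Cxcl10 with growth factors stood at 0.19 against hydrogel CT (-2.02 to 2.40) and at -1.14 against SCI only (-3.27 to 1.00), and with hydrogel CT at -1.33 against SCI only (-3.47 to 0.81). The largest Cxcl10 and Clu levels, 115 and 1227 CPM, were in library 9874, which also had the largest sum of microglia and macrophage markers in HA (1305 CPM, against 32.2 to 475 CPM in the others), and this was not tested as a cause. All these directions are relative to the typical gene. Without TMM the all-gene median moved to -2.37, 3.96 and 1.57 in the 3 HA comparisons, and 10 of the 12 differences of the 4 genes changed sign. Among these, Clu (3.77, adjusted p = 0.00058), C3 (3.08, 0.0135) and Serpina3n (3.26, 0.00102) then passed as higher with hydrogel CT against SCI only. However, 4574 of 6654 genes passed there in either direction, and these 3 values lay below the all-gene median of 3.96. Serpina3n with growth factors against SCI only kept its sign (2.44) and passed at 0.0325, where 510 of 6654 genes passed. On the TMM scale no gene of the pathway lists passed between treatments in HA. In the authors' deposited table Serpina3n in HA stood at a log2 fold change of 1.15 for growth factors against SCI only, with a false discovery rate of 0.0759.

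In FT, 610 genes could be tested, and C3 and Cxcl10 had too few counts to be among them. Clu and Serpina3n did not pass, where 0.0% of genes passed for growth factors against hydrogel CT (23 at an unadjusted p under 0.05 in edgeR, 0 called by DESeq2), 3.28% for hydrogel CT against SCI only and 3.77% for growth factors against SCI only. Serpina3n averaged 69.2 ± 83.3 CPM with growth factors, 75.8 ± 77.5 CPM with hydrogel CT and 340.2 ± 60.9 CPM with SCI only (SD, n = 5, 4 and 4). On the TMM scale every hydrogel library was below every SCI only library, and the share of all genes that separate so was not counted. The log2 difference was -2.16 (SE 0.76, adjusted p = 0.128) with growth factors and -2.37 (SE 0.81, adjusted p = 0.116) with hydrogel CT, each against SCI only. Serpina3n passed for growth factors without number 1685 (adjusted p = 0.0386) and for hydrogel CT without number 1732 (0.0423) or with only the groups compared (0.0310). Without TMM both differences were positive (1.64 and 2.20), while the median of all genes stood at 4.003 and 4.599. Clu with growth factors stood at -0.21 against hydrogel CT (95% interval -1.84 to 1.42) and at -0.56 against SCI only (-2.07 to 0.94), and with hydrogel CT at -0.36 against SCI only (-1.92 to 1.21). Without TMM the last 2 were 2.88 (adjusted p = 0.0176) and 4.16 (0.00167), both past the threshold. So were 565 and 588 of the 610 genes, and both Clu values lay below the all-gene medians of 4.003 and 4.599. Relative to Gfap, Serpina3n in FT had 12.5 to 144 counts per 100 with growth factors, 8.82 to 127 with hydrogel CT and 88.4 to 137 with SCI only.

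On the TMM scale the summed level of microglia and macrophage markers was also lower in FT of the hydrogel treatments than in FT of SCI only. The sums and tests in this paragraph are not given without TMM. Without it the median of all genes moved to 4.003 with growth factors and 4.599 with hydrogel CT, each against SCI only, so their order may depend on it. Their 11 listed genes summed to 50.03 to 1321 CPM with growth factors, 70.4 to 2416 CPM with hydrogel CT and 3738 to 9913 CPM with SCI only, and Tmem119 was at 0 with growth factors. Astrocyte markers in FT summed to 341 to 5609 CPM with growth factors, 1511 to 4745 CPM with hydrogel CT and 1781 to 2112 CPM with SCI only. Of the complement list, C1qa was lower with growth factors (-6.36, SE 0.94) and with hydrogel CT (-5.82, SE 0.97), and C1qb was lower with growth factors (-2.79, SE 0.78), each against SCI only. Lyz2, a lysozyme of myeloid cells, was lower with growth factors (-3.52, SE 0.96), whereas Cx3cr1 was higher (3.51, SE 0.95). The part of these cells in the Serpina3n values was not tested. The authors' deposited table calls 2 differences among the sparse genes in FT: C3 with growth factors against SCI only at a log2 fold change of -4.16 (false discovery rate 0.0141) and Cxcl10 with hydrogel CT against SCI only at -5.83 (0.0146). These rest on 1 and 0 counts in the hydrogel group, and without a filter on low counts edgeR's test here gave adjusted p = 0.0585 and 0.05004.

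**Figure D5:**
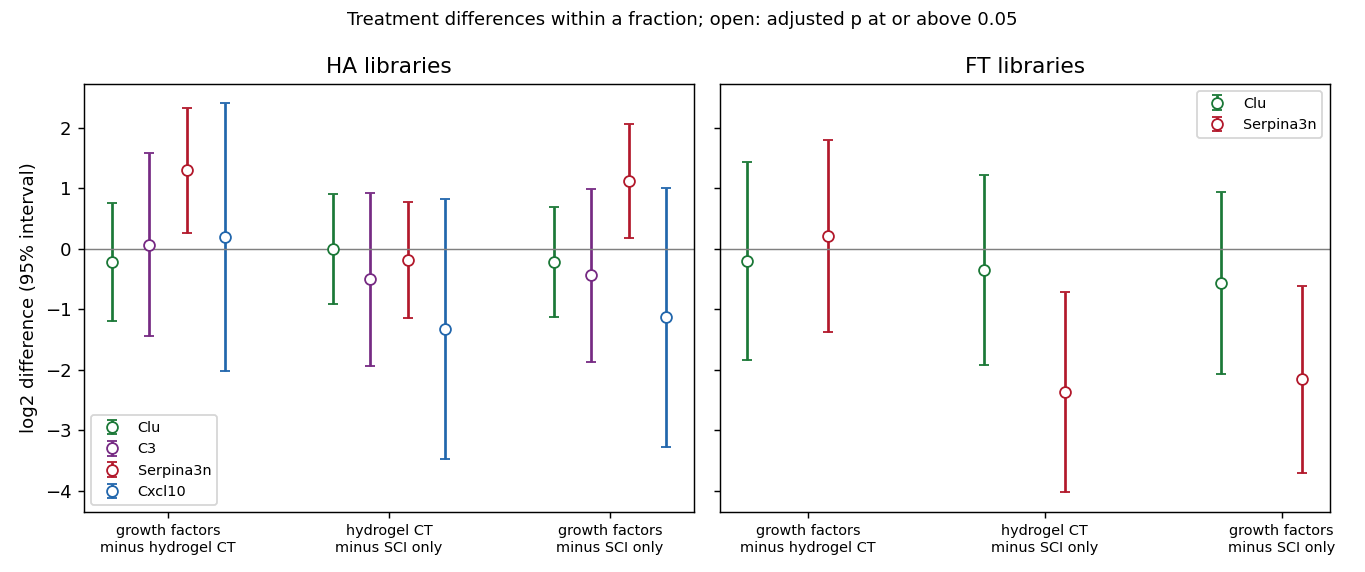
Log2 difference between treatments within HA and within FT for each gene tested, with 95% intervals. Every point is open, so none passed at an adjusted p under 0.05, and Serpina3n lies at 1.30 and 1.11 in HA and at -2.37 and -2.16 in FT for the contrasts whose intervals exclude 0; these directions are on the TMM scale and 3 of these 4 change sign without it.

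The genes whose pattern over the 10 HA libraries was most like that of each member were ranked by Pearson correlation of log2 CPM among 2865 other genes, as a description, since libraries share treatments and depths. For Cxcl10 they were Actr1b (0.886), Gtf2f1 (0.886), C330006A16Rik (0.870), Ifit1 (0.868) and Brip1os (0.866). For Serpina3n they were Tuba1a (0.901), Abcf1 (0.884), A2m (0.879), Tppp (0.877) and Gabarapl1 (0.872), for C3 Slc6a6 (0.923), Adamts5 (0.873), 2510039O18Rik (0.858), Gab1 (0.851) and Cntn2 (0.839), and for Clu they included Nudt9 (0.903), Trak1 (0.876), Npc2 (0.863) and Lrrc59 (0.860). The 4 genes were not among each other's closest. The highest correlation within the set was 0.553 between C3 and Cxcl10, and Clu and Serpina3n stood at -0.416.

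Ifit1 is a classic gene of the interferon response, as Cxcl10 is. In HA, Ifit1 stood at 0, 3.09 and 89.6 CPM with growth factors, at 0.746, 2.18 and 13.4 CPM with hydrogel CT, and at 6.76, 10.2, 15.2 and 68.8 CPM with SCI only. Library 1685 was the highest with growth factors for both genes, 1759 with hydrogel CT and 9874 with SCI only, which restates the correlation by which Ifit1 was named. Ifit1 itself stood at a log2 difference of 2.31 between HA and FT (SE 0.89, adjusted p = 0.0647).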

How the data were processed

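RNA of the HA precipitate and of the flow-through was measured by RNA-seq after amplification from a low input, per the labels' protocols. The authors deposited raw counts per transcript row, made from reads called with CASAVA 1.8.2 on mm10, per the submitters' processing notes; no source used here names the aligner, counter, annotation or strand setting. The log2 fold changes and the p-values and FDR values that the authors deposited beside the counts come from edgeR, per the submitters' processing notes, and are printed only where named. The tables held 10389 rows for HA and 5001 for FT, with row totals of at least 10 and 11. Rows with no symbol (136 and 35, at most 0.319% of a library's counts) were left out, as were 19 and 26 per-sample columns that match no sample used here.

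Counts were summed per symbol. Genes were kept by edgeR's filterByExpr with a minimum count of 10, libraries were scaled by TMM, and edgeR 4.0.16 in R 4.3.3 gave two-sided quasi-likelihood tests with Benjamini-Hochberg adjustment over all genes tested, at a threshold of 0.05. HA was set against FT in the 10 title numbers with both fractions, over all treatments, within each and as interactions; treatments were compared within each fraction. CPM values are on a scale of all 23 libraries, while each test uses its own. Alternatives were DESeq2 1.42.0 and its size factors, no TMM, other filters, no ribosomal RNA loci, fewer groups, a replicate block and leaving out each title number. The script was tested on simulated data.

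Title numbers are shared between fractions, and the design text states that the flow-through is of the same tissue samples, so numbers were taken to pair the libraries in comparisons within a number. The tests themselves carried no term for title number and are not paired. Only the replicate block, run for HA against FT over all treatments, had such a term. The correlations of deviations within a number were 0.00206 to 0.0804, with 0 of 10 above 0.1. The members and gene lists were chosen with earlier results of these data known. The genes named are the members, the listed genes of each pathway that passed or that bind, cleave or receive a member, and the 5 genes most alike in pattern; C4b, C1qa, Serpini1, Osmr, H2-D1, S100a10, Timp2, Gpc6 and, in the fraction comparison, Ifit1 were added after their values were seen. Some genes that this rule names are not reported here. Gene positions are from GENCODE M21 (GRCm38).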

Additional observations from a re-analysis of the deposited data

Results flagged for a closer look

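In 4 of 16 groups tested, one library stood far from the others, judged by its gap to the next library over the group's range. For continuous values in independent groups, chance flags about 5% of groups. Groups with few counts, and genes that share the same libraries, do not meet this, so the 4 flags are not set against that rate. C3 in FT with growth factors had 0.784 CPM in library 1732, a single count, against 0 in the others. Serpina3n in FT with growth factors had 212 CPM in library 1685, against 11.8 to 66.6 CPM in the others. Cxcl10 in FT with growth factors had 18.5 CPM in the same library 1685, on 4 counts, against 0 to 1.57 CPM in the others. C3 in FT with SCI only had 25.9 CPM in library 9843, on 21 counts, against 6.70 to 8.58 CPM in the others. Library 1685 was also the highest with growth factors for Cxcl10 in HA, at 44.9 CPM.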

How the results depend on the processing

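Over all treatments the 4 calls of HA above FT were kept under every alternative run except scaling without TMM, which lost C3 and Cxcl10. With each title number left out, Clu ranged from 3.996 to 4.45, C3 from 3.03 to 3.72, Serpina3n from 2.89 to 3.23 and Cxcl10 from 2.27 to 2.80, with a highest adjusted p of 0.0302. With the title number as a replicate block the values were 4.29, 3.40, 3.35 and 2.28 with 891 genes called, and no call changed. In all, 860 alternatives of single values for the 4 genes were run, of which 756 kept direction and side of the threshold, 23 lost a call, 19 gained one and 62 changed sign, and 5 of the 62, all without TMM, also passed the threshold with the new sign. FT of the hydrogel treatments, with 3284 to 119843 counts outside ribosomal RNA, limits every value that rests on it. Except where the smaller set of samples or genes is the alternative itself, the cause of these changes was not tested. Values in parentheses are the log2 differences under the setting named.

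DESeq2 put below the threshold C3 (3.53) for HA against FT with hydrogel CT. It also put past the threshold C3 (2.23), Serpina3n (1.88) for HA against FT with SCI only. The same setting turned the sign of Clu (-0.17) for the HA to FT difference with growth factors minus that with hydrogel CT, and Clu (-0.0726) for the HA to FT difference with hydrogel CT minus that with SCI only, and Clu (-0.24) for the HA to FT difference with growth factors minus that with SCI only. Further, it turned the sign of Clu (0.12) for hydrogel CT against SCI only in FT. Its counts of genes called were 200 for HA against FT with hydrogel CT, 364 for HA against FT with SCI only, 41 for the HA to FT difference with growth factors minus that with hydrogel CT. Further counts were 1 for the HA to FT difference with hydrogel CT minus that with SCI only, 84 for the HA to FT difference with growth factors minus that with SCI only, 307 for growth factors against hydrogel CT in HA. Other counts were 289 for hydrogel CT against SCI only in HA, 761 for growth factors against SCI only in HA, 127 for hydrogel CT against SCI only in FT. Counts also moved to 92 for growth factors against SCI only in FT. DESeq2 size factors in edgeR put below the threshold C3 (3.54) for HA against FT with hydrogel CT. In addition it turned the sign of Clu (-0.23) for the HA to FT difference with growth factors minus that with hydrogel CT, and Clu (-0.0888) for the HA to FT difference with hydrogel CT minus that with SCI only, and Clu (-0.32) for the HA to FT difference with growth factors minus that with SCI only. This setting also turned the sign of Clu (0.0332) for hydrogel CT against SCI only in FT. Genes called then numbered 79 for HA against FT with hydrogel CT, 0 for the HA to FT difference with growth factors minus that with SCI only, 0 for growth factors against hydrogel CT in HA. They also numbered 6 for hydrogel CT against SCI only in FT, 6 for growth factors against SCI only in FT. Scaling without TMM put below the threshold C3 (1.94), Cxcl10 (0.98) for HA against FT, and Clu (1.48), C3 (2.29), Serpina3n (1.39) for HA against FT with growth factors, and Clu (2.92), C3 (2.61), Serpina3n (2.01) for HA against FT with hydrogel CT. That setting turned the sign of Cxcl10 (-1.22) for HA against FT with growth factors, and Clu (-1.45), C3 (-0.32), Serpina3n (-0.61) for the HA to FT difference with growth factors minus that with hydrogel CT, and Clu (-0.10) for the HA to FT difference with hydrogel CT minus that with SCI only. Under this choice the fit turned the sign of Clu (-1.55) for the HA to FT difference with growth factors minus that with SCI only, and C3 (-2.03), Serpina3n (-0.82), Cxcl10 (-1.53) for growth factors against hydrogel CT in HA, and Clu (3.77), C3 (3.08), Serpina3n (3.26), Cxcl10 (2.38) for hydrogel CT against SCI only in HA. It also turned the sign of Clu (1.35), C3 (1.05), Cxcl10 (0.85) for growth factors against SCI only in HA, and Serpina3n (-0.56) for growth factors against hydrogel CT in FT, and Clu (4.16), Serpina3n (2.20) for hydrogel CT against SCI only in FT. The same setting turned the sign of Clu (2.88), Serpina3n (1.64) for growth factors against SCI only in FT. The genes called were 2175 for HA against FT with growth factors, 63 for HA against FT with hydrogel CT, 114 for HA against FT with SCI only. Further counts were 203 for the HA to FT difference with growth factors minus that with hydrogel CT, 333 for the HA to FT difference with growth factors minus that with SCI only, 525 for growth factors against hydrogel CT in HA. Other counts were 4574 for hydrogel CT against SCI only in HA, 510 for growth factors against SCI only in HA, 588 for hydrogel CT against SCI only in FT. Counts also moved to 565 for growth factors against SCI only in FT. A fit without a filter on low counts turned the sign of C3 (-0.000279) for growth factors against hydrogel CT in HA, and Clu (0.13) for hydrogel CT against SCI only in HA, and Serpina3n (-0.16) for growth factors against hydrogel CT in FT. Calls over all genes numbered 69 for growth factors against SCI only in HA, 149 for hydrogel CT against SCI only in FT, 174 for growth factors against SCI only in FT. A minimum of 5 CPM turned the sign of Serpina3n (-0.17) for growth factors against hydrogel CT in FT. Its counts of genes called were 0 for growth factors against hydrogel CT in HA, 27 for hydrogel CT against SCI only in HA, 74 for growth factors against SCI only in HA. They also numbered 153 for hydrogel CT against SCI only in FT, 164 for growth factors against SCI only in FT. Leaving out the ribosomal RNA loci put past the threshold C3 (2.40), Serpina3n (2.05) for HA against FT with SCI only. Further, it turned the sign of Clu (0.0198) for hydrogel CT against SCI only in HA, and Clu (0.36) for hydrogel CT against SCI only in FT, and Clu (0.0642) for growth factors against SCI only in FT. Genes called then numbered 0 for growth factors against hydrogel CT in HA, 8 for hydrogel CT against SCI only in HA, 66 for growth factors against SCI only in HA. Further counts were 33 for hydrogel CT against SCI only in FT. A fit of only the groups compared turned the sign of Clu (0.00432) for hydrogel CT against SCI only in HA. The genes called were 0 for growth factors against hydrogel CT in HA, 113 for hydrogel CT against SCI only in HA, 5 for growth factors against SCI only in HA. Other counts were 209 for hydrogel CT against SCI only in FT. A fit of only one treatment's libraries put below the threshold C3 (5.65) for HA against FT with growth factors, and C3 (3.87) for HA against FT with hydrogel CT. In addition it put past the threshold C3 (2.13), Serpina3n (1.798) for HA against FT with SCI only. Calls over all genes numbered 94 for HA against FT with growth factors, 421 for HA against FT with SCI only. A filter set by fraction, added after the data were seen, put below the threshold C3 (3.63) for HA against FT with hydrogel CT. Its counts of genes called were 72 for HA against FT with hydrogel CT.

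Leaving out one title number at a time gave these lowest and highest log2 differences, for results where a call, a sign or a count moved. For HA against FT with growth factors, the count of genes called 243 to 596. For HA against FT with hydrogel CT, Cxcl10 8.86 to 9.87, the count of genes called 8 to 247, C3 3.65 to 4.22, Serpina3n 3.05 to 3.81. For HA against FT with SCI only, C3 2.02 to 2.77, Serpina3n 1.88 to 2.04, the count of genes called 40 to 295. For the HA to FT difference with growth factors minus that with hydrogel CT, Clu -0.94 to 1.68. For the HA to FT difference with growth factors minus that with SCI only, the count of genes called 0 to 11, Clu -0.62 to 1.98, Cxcl10 -0.89 to 0.0769. For hydrogel CT against SCI only in HA, Serpina3n -0.43 to 0.18, the count of genes called 3 to 29, Clu -0.16 to 0.21. For growth factors against SCI only in HA, the count of genes called 2 to 127, Clu -0.52 to 0.0918. For growth factors against hydrogel CT in HA, the count of genes called 0 to 13, C3 -0.38 to 0.40, Cxcl10 -2.24 to 0.91, Clu -0.58 to 0.0326. For growth factors against hydrogel CT in FT, Clu -0.88 to 0.33, Serpina3n -0.79 to 0.87. For growth factors against SCI only in FT, the count of genes called 9 to 36. For hydrogel CT against SCI only in FT, the count of genes called 4 to 34.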
